A study of Mus musculus with 6 samples.

Results

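Transforming growth factor β (TGF-β) signaling was described here through 10 genes that encode its ligands, receptors, SMAD proteins and a nuclear co-repressor (Tgfb1, Tgfb3, Tgfbr1, Tgfbr2, Tgfbr3, Smad2, Smad3, Smad4, Smad7 and Skil). They were taken by symbol from the 24421 genes of the count matrix, and all 10 were among the 11658 genes that passed the filter on low counts. The libraries came from splenic CD4+YFP+ Treg cells, 3 from Foxp3Cre mice (WT) and 3 from Foxp3Cre miR-142fl/fl mice (KO), which were untreated C57BL/6 females of 8 to 11 weeks, with 3 mice per group. Both groups carry Cre fused to YFP under the endogenous Foxp3 promoter, so that Cre is made in cells that have turned Foxp3 on. In bulk libraries of sorted cells, fewer cells that express a gene and less RNA per cell cannot be told apart. The study reported a fatal autoimmune disease in KO mice. It named the inflammation in these mice as a conceivable source of pro-inflammatory expression changes in their Treg cells. The part of the disease in the results was not tested.

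TGF-β is made as a latent complex and must be released, by integrins among others, before it binds the type II receptor TGFBR2, which recruits and phosphorylates the type I receptor TGFBR1. TGFBR1 then phosphorylates SMAD2 and SMAD3, which enter the nucleus with SMAD4, while SMAD7 and SKIL (SnoN) restrain the pathway and are induced by it. In T cells the pathway is known for keeping self-reactive cells in check, for inducing Foxp3 in the periphery and for supporting Treg cells.

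In miR-142-deficient Treg cells the type I receptor gene Tgfbr1 rose 1.87-fold and the low-abundance ligand gene Tgfb3 rose 2.73-fold. The other 8 members, the main ligand gene Tgfb1, the type II receptor gene Tgfbr2 and all 4 SMAD genes among them, were not called. Each call rests on the edgeR quasi-likelihood F (QLF) test over all tested genes with a Benjamini-Hochberg false discovery rate (FDR) under 0.05. The 2 called members of 10 compare with a background of 18.8% of all tested genes called in either direction with 11.6% called higher and 7.27% lower, so the share of called members was near the background. The KO libraries did not overlap the WT libraries in 2 members, against 41% of all tested genes.

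Because miR-142 was deleted in the Treg cells of the KO mice, the mature sequences of the miRNA are shown first, with the seed (bases 2 to 8) in capitals. They are those of RefSeq (GRCm38.p6, chromosome 11, plus strand, chr11:87756903-87756925 for the 3p and chr11:87756867-87756887 for the 5p strand).
mmu-miR-142a-3p: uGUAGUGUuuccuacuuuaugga
mmu-miR-142a-5p: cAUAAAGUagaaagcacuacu
The longest annotated 3′ UTR of each member was searched on the mRNA strand for the 7-mers that complement these seeds. For the 3p strand these were ACACTAC and CACTACA, and for a seed shifted by 1 base (bases 3 to 9), which overlaps the first, AACACTA and ACACTAA. For the 5p strand they were ACTTTAT and CTTTATA.

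Among the members a 3p 7-mer was present in 4 (Tgfbr1, Tgfbr3, Smad2 and Smad4) and a 5p 7-mer in 4 (Tgfbr1, Tgfbr2, Tgfbr3 and Smad2). Of the 10786 tested genes matched to a 3′ UTR by symbol, 22.7% held a 3p and 23.5% a 5p 7-mer. Singly, ACACTAC was found in 7.08%, CACTACA in 8.77%, AACACTA in 10.3%, ACACTAA in 10.1%, ACTTTAT in 15.9% and CTTTATA in 15.3% of them. The 5 members with none of the 7-mers were Tgfb1, Tgfb3, Smad3, Smad7 and Skil. The stretches around the matches in the receptor genes are shown because Tgfbr1 is the member with the smallest p-value (matched bases in capitals, 5′ to 3′ on the mRNA, GENCODE vM21 on GRCm38).
Tgfbr1, 3p match in exon 9, plus strand, chr4:47414863-47414891: atttcatcctAACACTACAgtagaaaatg
Tgfbr1, 5p match in exon 9, plus strand, chr4:47412802-47412830: ttcgagatctgCTTTATAgaaatccaggg
Tgfbr1, 5p match in exon 9, plus strand, chr4:47414395-47414423: atttgatatttCTTTATAtgtcaaggaga
Tgfbr2, 5p match in exon 8, minus strand, chr9:116090061-116090089: ataacgtttgcACTTTATtaatgcctgtg
Tgfbr3, 3p match in exon 17, minus strand, chr5:107107166-107107194: tctgtgcaaggCACTACAgctattcacgt
Tgfbr3, 5p match in exon 17, minus strand, chr5:107107627-107107656: cattgccaaggACTTTATAaataatcttaa
In Tgfbr1 the 9 matched bases hold 3 of the 4 overlapping 3p 7-mers and lie 50 bases before the end of a 3′ UTR of 4154 bases. Smad2 held 2 separate 3p and 2 separate 5p matches in 6233 bases, and Smad4 held 2 separate 3p matches in 1249 bases. The members' 3′ UTRs differed in length. Those of Tgfbr1, Tgfbr2, Smad2 and Skil were longer than 91.6% or more of the 3′ UTRs of tested genes, whereas that of Tgfb1, at 135 bases, was longer than 4.87%. A 7-mer match describes the sequence and does not show a site in use.

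Total counts ranged from 13883069 to 24042994 per library, and a floor of 3 counts corresponded to between 0.125 and 0.216 CPM (the count of a gene scaled to a common library total, taken here from total counts and in all later values from TMM-scaled library sizes). The microRNA gene Mir142 had 0 counts in every library. Mir142b, annotated at the same locus, had 9.05, 4.14 and 5.81 CPM in WT and 0.389, 0.379 and 0.342 CPM in KO (log2 fold change -4.07, SE 0.39, FDR = 0.00132), in the direction of the labels. The Treg cell genes Foxp3, Il2ra, Ikzf2 and Ctla4 were at 315 CPM or more in all 6 libraries. KO replicate 1 stood apart. The 12 monocyte and macrophage markers, each at its highest in this library, summed to 3119 CPM there, against 90.3 and 23.8 CPM in KO replicates 2 and 3 and 12.9 to 17.4 CPM in WT, where Fcgr1 was at 0. The 12 neutrophil markers summed to 918, 8.25 and 46.0 CPM in KO and to 1.42 CPM or less in WT, where 5 of them (S100a8, Lcn2, Retnlg, Cxcr2 and Mmp8) were at 0. The 9 B cell markers summed to 292 CPM in KO replicate 1, to 9.31 and 13.3 CPM in the other KO and to between 30.5 and 41.4 CPM in the WT libraries. In each marker list given here except that of B cells, the sums of KO replicates 2 and 3 also lay above those of all WT libraries. Not every gene of a list followed its sum. Mpo had 6.21 and 32.2 CPM in KO replicates 2 and 3, where S100a8 had 0 and 0.890 CPM. Vcam1 had 35.1 and 11.2 CPM there, against 2.28 CPM or less in WT. Cd68, at 4.09 and 3.08 CPM, lay below all WT libraries. C1qa, at 6.51 and 0.274 CPM, was above them in KO replicate 2 and not in KO replicate 3. The 9 CD8 and NK cell markers summed to between 113 and 279 CPM in KO and 37.8 and 45.6 CPM in WT. Most of the sum in KO replicates 2 and 3 came from Nkg7 (55.7 and 60.3 CPM) and Eomes (42.0 and 29.8 CPM). Cd8b1 overlapped between the groups, and Klrb1c was called lower in KO (log2 fold change -1.97, FDR = 0.0308). The 9 platelet markers, of interest because platelets carry TGF-β1, summed to between 16.8 and 20.7 CPM in KO and 8.41 and 9.98 CPM in WT, where Pf4, Gp1bb and Treml1 were at 0. Pf4 and Treml1 were at 0 in KO replicate 2 as well. Most of the sum in each library came from Gp1ba (4.65 to 6.28 CPM in WT, 8.33 to 13.6 CPM in KO) and Itga2b (3.43 to 3.48 CPM in WT, 4.72 to 6.36 CPM in KO). The part of these cells in the results was not tested. Values without KO replicate 1 are given beside the results.

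**Figure D1:**
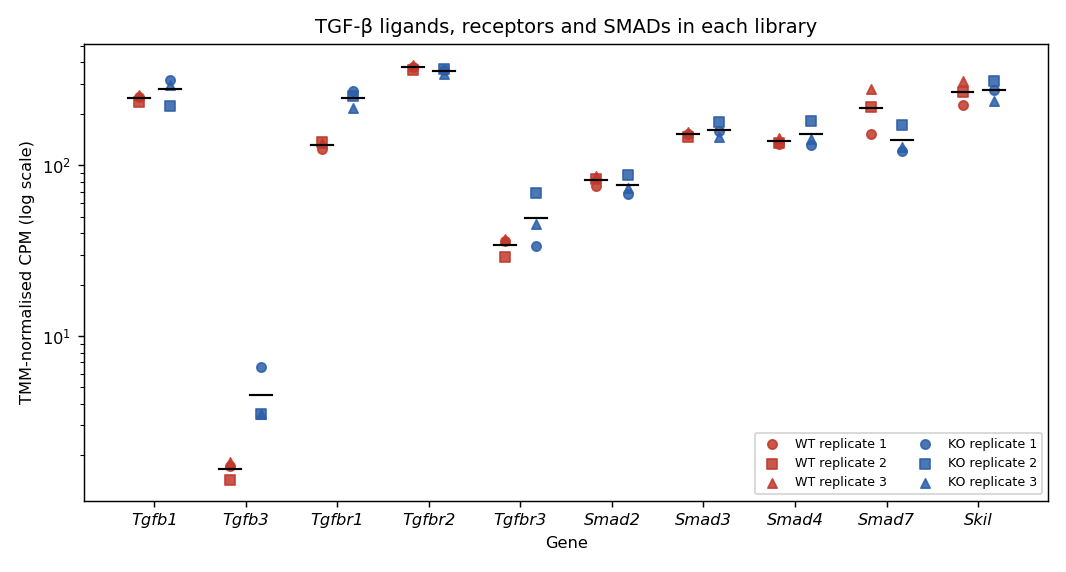
TMM-normalised CPM (log axis) of the 10 members in the 3 WT (red) and 3 KO (blue) libraries, with marker shapes for the replicates and black lines for the group means. Tgfbr1 and Tgfb3 are the members whose KO libraries all lie above their WT libraries, and in Tgfb3 KO replicate 1 (6.55 CPM) lies above the other KO libraries.

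Tgfb1 encodes the ligand that T cells mostly make. It had 250.2, 233 and 258 CPM in WT replicates 1, 2 and 3, and 317, 223 and 294 CPM in KO replicates 1, 2 and 3. KO replicates 1 and 3 lay above and KO replicate 2 below all WT libraries, so the groups overlapped. The log2 fold change, KO over WT, was 0.17 (95% interval -0.15 to 0.49, FDR = 0.42). The value moved with single libraries, from 0.048 without KO replicate 1 to 0.31 without KO replicate 2, where it passed the threshold (FDR = 0.0494).

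Tgfb3 encodes a second ligand of the same receptors. It was measured on few reads, 28, 35 and 33 counts in WT and 118, 46 and 51 counts in KO, equal to 1.72, 1.43 and 1.83 CPM in WT and 6.55, 3.48 and 3.49 CPM in KO. All KO libraries lay above all WT libraries, and KO replicate 1 was the highest. The log2 fold change was 1.45 (SE 0.32, 95% interval 0.69 to 2.20, FDR = 0.0227). Without KO replicate 1 it was 1.06 (FDR = 0.0283). The call was lost when any WT library was left out, with an FDR between 0.0728 and 0.102. Tgfb3 lies on chromosome 12 (GRCm38, 86056745 to 86079041, minus strand) and shares exonic bases with the annotated genes Gm37804 and Gm48008, from which reads cannot be separated where the exons coincide.

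Tgfbr1 encodes the kinase receptor that phosphorylates SMAD2 and SMAD3 (chromosome 4, GRCm38, 47353222 to 47414931, plus strand). It had 124, 137 and 135 CPM in WT and 272, 254 and 215 CPM in KO, and the lowest KO library was above the highest WT library. The mean rose from 132 ± 6.92 to 247 ± 29.1 CPM (SD, n = 3 per group), and the fitted log2 fold change was 0.90 (SE 0.11, 95% interval 0.65 to 1.16, FDR = 0.00286). It stood at position 214 of the 11658 tested genes by p-value. Tgfbr1 was called in all 16 alternative fits that could test it, with log2 fold changes between 0.81 and 0.98, and without KO replicate 1 the value was 0.81 (FDR = 0.00252). No other annotated gene shares its exonic bases.

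Tgfbr2 encodes the receptor that binds the ligand first. Its levels were 376, 359 and 388 CPM in WT and 362, 368 and 343 CPM in KO. The groups overlapped and each varied little, with a coefficient of variation of 3.82% in WT and 3.69% in KO. The log2 fold change was -0.07 (95% interval -0.26 to 0.12, FDR = 0.601).

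Tgfbr3 encodes betaglycan, a co-receptor without kinase activity that presents ligand. It had 35.9, 29.2 and 36.8 CPM in WT and 33.9, 68.7 and 45.3 CPM in KO. KO replicates 2 and 3 lay above the WT libraries and KO replicate 1 among them. The log2 fold change was 0.54 (95% interval -0.04 to 1.12, FDR = 0.173), and without KO replicate 1 it was 0.73 and passed the threshold (FDR = 0.0334). The number of called members therefore went from 2 to 3 when that library was left out.

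The ratio between the receptor genes was also taken within each library. The log2 ratio of Tgfbr1 to Tgfbr2 counts was -1.60, -1.39 and -1.52 in WT and -0.41, -0.54 and -0.67 in KO, a ratio that does not depend on the scaling between libraries. The groups did not overlap, and the ratio was 1.95-fold higher in KO. In the exact two-sided permutation test over the 6 libraries p was 0.1, the smallest that 3 against 3 can give, and 0.133 after adjustment over the 4 ratios tested. The log2 ratio of Tgfb1 to Tgfb3 fell by 1.21 in the means, from 7.20 ± 0.108 to 5.99 ± 0.395 (SD, n = 3 per group, exact permutation p = 0.1, adjusted 0.133).

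**Figure D2:**
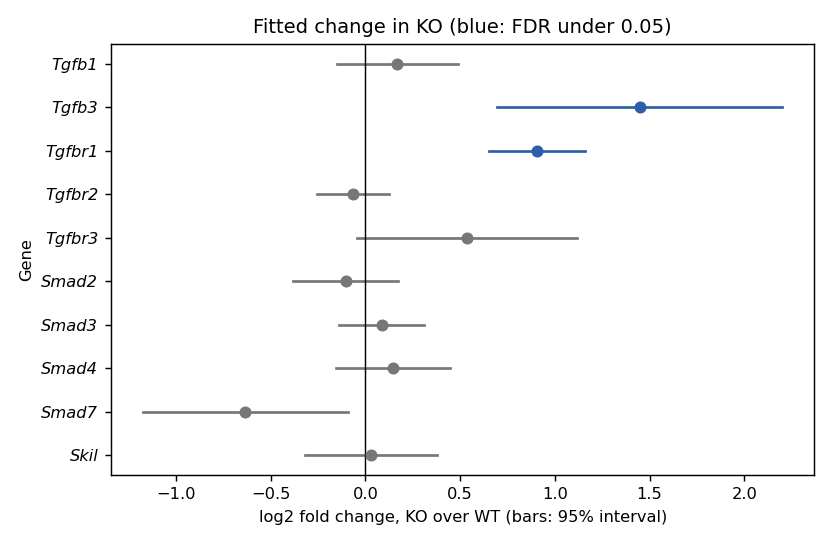
Fitted log2 fold change, KO over WT, of each member (points) with its 95% interval (bars) from the QLF fit over all 11658 tested genes, with called genes in blue. Tgfb3 (1.45) and Tgfbr1 (0.90) lie to the right of 0, and the interval of Smad7 (-1.17 to -0.09) lies to the left of 0 although its FDR was 0.0972.

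The receptor-regulated SMAD genes held their level within the spread of the replicates. Smad2 had 75.7, 83.6 and 86.9 CPM in WT and 67.8, 88.2 and 73.3 CPM in KO, with a log2 fold change of -0.10 (95% interval -0.38 to 0.17, FDR = 0.578). Smad3 had 152, 147 and 156 CPM in WT and 158, 179 and 146 CPM in KO, with a log2 fold change of 0.09 (95% interval -0.14 to 0.31, FDR = 0.57). The common partner Smad4 had 133, 136 and 145 CPM in WT and 132, 182 and 142 CPM in KO, with a log2 fold change of 0.14 (95% interval -0.16 to 0.45, FDR = 0.47). In all 3 genes KO replicate 2 was the highest library, and the KO libraries spread more widely than the WT libraries. None of them was called in any of the 16 alternative fits. Without KO replicate 1 the log2 fold change was -0.04 for Smad2, 0.08 for Smad3 and 0.22 for Smad4, and that of Tgfbr2 was -0.09.

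Smad7 encodes the inhibitory SMAD that blocks the type I receptor and is itself induced by TGF-β. It had 153, 219 and 280.2 CPM in WT and 122, 171 and 128 CPM in KO. The groups overlapped through WT replicate 1 and KO replicate 2, and WT was the more variable group, with a coefficient of variation of 29.4%. The log2 fold change was -0.63 (95% interval -1.17 to -0.09), with an unadjusted p of 0.0273 and an FDR of 0.0972 in the QLF test. Smad7 was called lower by DESeq2 (log2 fold change -0.64, adjusted p = 0.0232) and by the QLF test without WT replicate 1 (-0.86, FDR = 0.0438), and in none of the other 14 alternative fits. Without KO replicate 1 the value was -0.56 (FDR = 0.149). Relative to Smad3, the log2 ratio of Smad7 was 0.007, 0.575 and 0.847 in WT and -0.379, -0.066 and -0.187 in KO. Here the groups did not overlap (exact permutation p = 0.1, the smallest possible, adjusted 0.133). The ratio rests on the same Smad7 counts and is no further support for a fall of Smad7.

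Skil encodes SnoN, which binds SMAD complexes on DNA and represses them. It had 224, 269 and 312 CPM in WT and 274, 311 and 238 CPM in KO, with a log2 fold change of 0.03 (95% interval -0.32 to 0.38, FDR = 0.903). The direction of this value turned with the scaling and with single libraries, and was 0.02 without KO replicate 1. The log2 ratio of Skil to Smad4 was 0.949 ± 0.180 in WT and 0.854 ± 0.172 in KO (SD, n = 3 per group, exact permutation p = 0.6).

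To compare genes with each other, CPM was divided by the length of all annotated exons of the gene in kb. In WT Treg cells the order was Tgfb1 (49.0 CPM per kb), Smad7 (48.1), Tgfbr2 (45.8), Smad4 (37.1), Skil (27.7), Smad3 (27.4), Tgfbr1 (20.2), Smad2 (9.35), Tgfbr3 (5.19) and Tgfb3 (0.491). The ranges of the WT libraries overlapped between Tgfb1 and Smad7, between Smad7 and Tgfbr2 and between Skil and Smad3, and did not overlap between the other neighbours in this order. In KO the order was Tgfb1 (55.1 CPM per kb), Tgfbr2 (43.7), Smad4 (41.0), Tgfbr1 (37.8), Smad7 (31.0), Smad3 (29.0), Skil (28.3), Smad2 (8.70), Tgfbr3 (7.53) and Tgfb3 (1.33). Tgfbr1 moved from position 7 to position 4 and Smad7 from 2 to 5. Among neighbours in KO, the ranges of Skil and Smad2 and those of Tgfbr3 and Tgfb3 did not overlap. Smad3 stood above Smad2 in all 6 libraries.

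**Figure D3:**
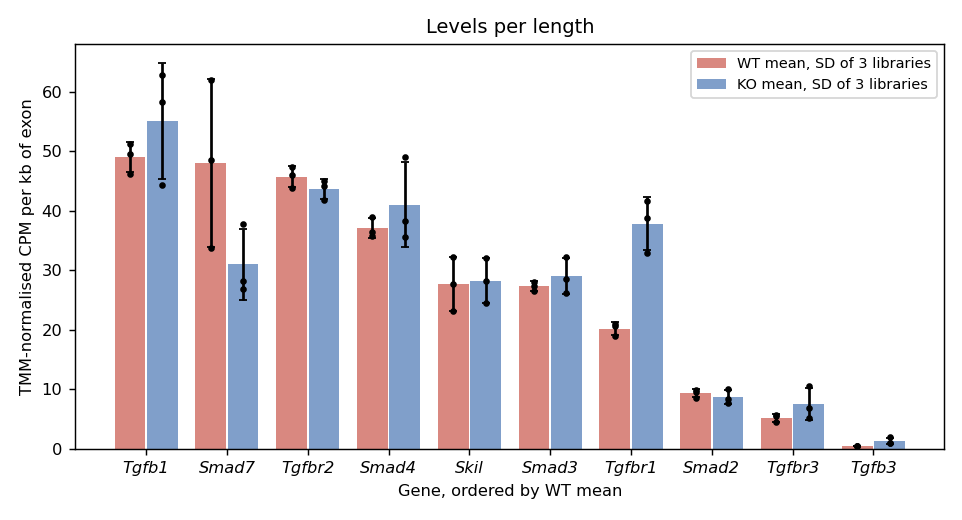
TMM-normalised CPM per kb of exon for the 10 members, ordered by their WT mean. Bars are means with the SD of 3 libraries (WT red, KO blue) and black points are single libraries, and the Tgfbr1 bar rises from 20.2 to 37.8 while the Tgfbr2 bars stand at 45.8 and 43.7.

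By Pearson correlation of log2 CPM over the 6 libraries, the 3 genes outside the members whose pattern was most like that of Tgfbr1 were Actr1a (r = 0.998), Etv6 (0.997) and Nav1 (0.997). The correlation ignores the size of the change. The log2 fold change was 0.16 for Actr1a, which was not called (FDR = 0.156), 0.79 for Etv6 and 3.01 for Nav1. The 6 points fall into a WT and a KO cluster, so such correlations describe the likeness only.

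The pathway beyond the members was read from 7 lists of its other genes. Of 96 different genes in the matrix, 71 were tested, and 19 were called higher and 5 lower in KO, or 33.8% of the tested genes against the background of 18.8%. Because the lists were chosen with earlier results of these data known, this difference is no support for a change of the pathway as a whole. Without KO replicate 1, 16 pathway genes were called higher and 3 lower of 67 tested, or 28.4% against 17.3% of all genes tested in that fit. Among the higher calls, Acvr1c (log2 fold change 2.14, FDR = 0.00702) and Mmp9 (1.02, FDR = 0.014) were not called with all libraries. Calls higher went down to 10 without WT replicate 2 and 12 without WT replicate 1, and calls lower to 2 without WT replicate 2 or 3. Calls over all tested genes went down in the same fits, from 1350 higher and 847 lower to 483 and 208 without WT replicate 2, 666 and 356 without WT replicate 1 and 555 and 235 without WT replicate 3. The genes Bmp1, Eng and Cdkn2b, 3 of the 19 called higher, were under 1 CPM in every WT library and passed the filter only through the KO libraries, so their calls were favored by the filter and are no support for the count. Called again without KO replicate 1 were Furin (log2 fold change 0.88), Itgav (0.74), Itgb8 (-0.80), Ltbp4 (2.02), Emilin1 (0.98), Bmpr1a (2.67), Bmpr2 (1.06), Nrp1 (-0.67), Smad5 (0.90), Smurf2 (0.51), Nedd4l (-0.56), Pmepa1 (0.78), Runx3 (0.94), Ywhae (0.88), Itgae (2.09), Id2 (1.05) and Gpr83 (1.95).

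Among genes of latency and activation, 5 of 13 tested were called higher and 1 lower (46.2% called, against 18.8% of all tested genes). Furin, which encodes the protease that cleaves the TGF-β precursor, rose from 109 ± 3.05 to 198 ± 14.1 CPM (SD, n = 3 per group, log2 fold change 0.87, FDR = 0.00138). Itgav, the αv integrin subunit of TGF-β-activating integrins, had 111, 113 and 105 CPM in WT and 259, 177 and 195 CPM in KO (0.94, FDR = 0.00658). Its partner Itgb8 changed in the opposite direction. Itgb8 had 37.0, 46.0 and 42.9 CPM in WT and 21.8, 25.3 and 23.5 CPM in KO (-0.84, FDR = 0.00514). Both integrin genes were called in all 16 alternative fits. Lrrc32, which encodes GARP, the protein that holds latent TGF-β on the Treg cell surface, had 359, 342 and 469 CPM in WT and 541, 543 and 543 CPM in KO (0.48, FDR = 0.0443), and its call was lost in 5 of the 6 fits that left out a library, the one without KO replicate 1 among them (FDR = 0.062), and also when scaling by library size alone (0.0664), without a filter (0.0723) and with a replicate block (0.0524). Ltbp4, a latent TGF-β binding protein gene, had log2 fold change 1.89 and Emilin1, a matrix protein gene, 1.16, both at low levels of 13.6 and 16.0 CPM or less. The Emilin1 call was lost without WT replicate 2.

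Among other receptors and co-receptors, 3 of 10 tested genes were called higher and 1 lower (40% called, against 18.8% of all tested genes). The BMP type I receptor gene Bmpr1a had 6.34, 3.65 and 6.31 CPM in WT and 28.6, 38.5 and 30.7 CPM in KO (log2 fold change 2.59, FDR = 0.00129). The BMP type II receptor gene Bmpr2 rose from 48.7 ± 3.55 to 101 ± 8.29 CPM, a log2 fold change of 1.05 (FDR = 0.00129). Both were called in all 16 alternative fits, with every KO library above every WT library. Eng, which encodes endoglin, had 9.99 CPM in KO replicate 1 against 2.88 and 2.33 CPM in the other KO libraries and at most 0.739 CPM in WT (3.09, FDR = 0.0182), its call was lost when any WT library was left out, and without KO replicate 1 it was under the filter and was not tested. Nrp1, a co-receptor that binds TGF-β and marks thymus-derived Treg cells, fell by 0.66 on the log2 scale (FDR = 0.00497).

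The SMADs of the BMP arm gave 1 call among 2 tested genes (50%, against 18.8% of all tested genes), too few for the share to be read. Smad5 had 76.7, 73.0 and 68.6 CPM in WT and 97.6, 142 and 132 CPM in KO (0.77, FDR = 0.0134), and its call was lost when any WT library was left out, whereas Smad1 had a log2 fold change of -0.25 (FDR = 0.237). Of 3 tested genes on the list of other ligands, 1 was called (33.3%), which again is too few to be read. It was Bmp1, which encodes a protease and not a signaling ligand (1.61, FDR = 0.0331), at 2.22 CPM or less in every library. It was not tested without KO replicate 1, and its call was lost when any WT library was left out, without a filter (FDR = 0.0591) and with a replicate block (0.0701).

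Among 20 co-repressors, inhibitors and ubiquitin enzymes, all tested, 3 were called higher and 1 lower. This share of 20% was near the 18.8% over all tested genes. The median log2 fold change was -0.0048 against 0.016 over all tested genes. Pmepa1, a TGF-β-induced inhibitor of SMAD signaling, had 34.6, 33.5 and 37.7 CPM in WT and 75.7, 67.2 and 55.3 CPM in KO (0.91, FDR = 0.00509). The ubiquitin ligase genes Smurf2 (0.44, FDR = 0.0262) and Nedd4l (-0.61, FDR = 0.0145) changed in opposite directions. The Smurf2 call was lost without any 1 of the WT libraries or KO replicate 3, and the Nedd4l call without WT replicate 2 or 3. Fkbp1a, whose product binds the resting type I receptor, was called higher (0.39, FDR = 0.025), a call lost when scaling by library size alone (FDR = 0.0537), with a replicate block (0.0608) and in 5 of the 6 fits that left out a library, the one without KO replicate 1 among them (FDR = 0.0511). Ski, the close relative of Skil, had a log2 fold change of -0.18 (FDR = 0.435).

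Among partners and the non-SMAD arm, 2 of 13 tested genes were called higher and 1 lower (23.1% called, near the 18.8% over all tested genes). Runx3, a transcription factor gene whose product works with SMADs, rose by 1.06 on the log2 scale (FDR = 0.00324), Ywhae, a 14-3-3 gene, by 0.98 (FDR = 0.00413). Runx1 fell by 0.39 (FDR = 0.0457), a call lost in 4 of the 6 fits that left out a library, the one without KO replicate 1 among them (FDR = 0.0626), without a filter (0.0541) and with a replicate block (0.0724). Map3k7, the TAK1 kinase gene, had a log2 fold change of -0.02 (FDR = 0.895).

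Genes that TGF-β is known to induce or repress gave 5 higher and 1 lower call among 14 tested (42.9% called, against 18.8% of all tested genes). Itgae, which encodes the CD103 integrin subunit and is a classic TGF-β-induced gene in T cells, had 133, 127 and 102 CPM in WT and 597, 479 and 558 CPM in KO (log2 fold change 2.18, FDR = 0.000508). By flow cytometry the study found CD103 protein raised on KO Treg cells and counted it among markers of T cell activation. Which input raised Itgae was not tested. Gpr83, a Treg cell receptor gene, rose by 1.78 (FDR = 0.00412). The Id genes, which BMP signaling induces, divided. Id2 rose by 1.40 (FDR = 0.0128), a call lost without WT replicate 1 or 2. Id3 fell by 0.60 (FDR = 0.0448), a call lost in 5 of the 6 fits that left out a library, the one without KO replicate 1 among them (FDR = 0.071), without a filter (0.058) and with a replicate block (0.0771). Id1 was not called at 1.26 CPM or less in both group means. Cdkn2b, a cell-cycle inhibitor gene, had at most 8 counts in a WT library and 31 or more in each KO library (3.87, FDR = 0.0134). Its call was lost without WT replicate 2 (FDR = 0.0717), its log2 fold change was 4.72 without WT replicate 3, and it was not tested without KO replicate 1. Foxp3, also on this list, was not called (0.28, FDR = 0.083). Nor were Cdkn1a (1.04), Rgs16 (0.20), Ldlrad4 (0.07), Nedd9 (-0.05), Ski (-0.18) and Tgif1 (-0.65). Smad7 and Skil, members that the pathway induces as well, were not called higher. Since this list mixes genes with other inputs, its counts describe these genes and not the activity of the pathway.

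**Figure D4:**
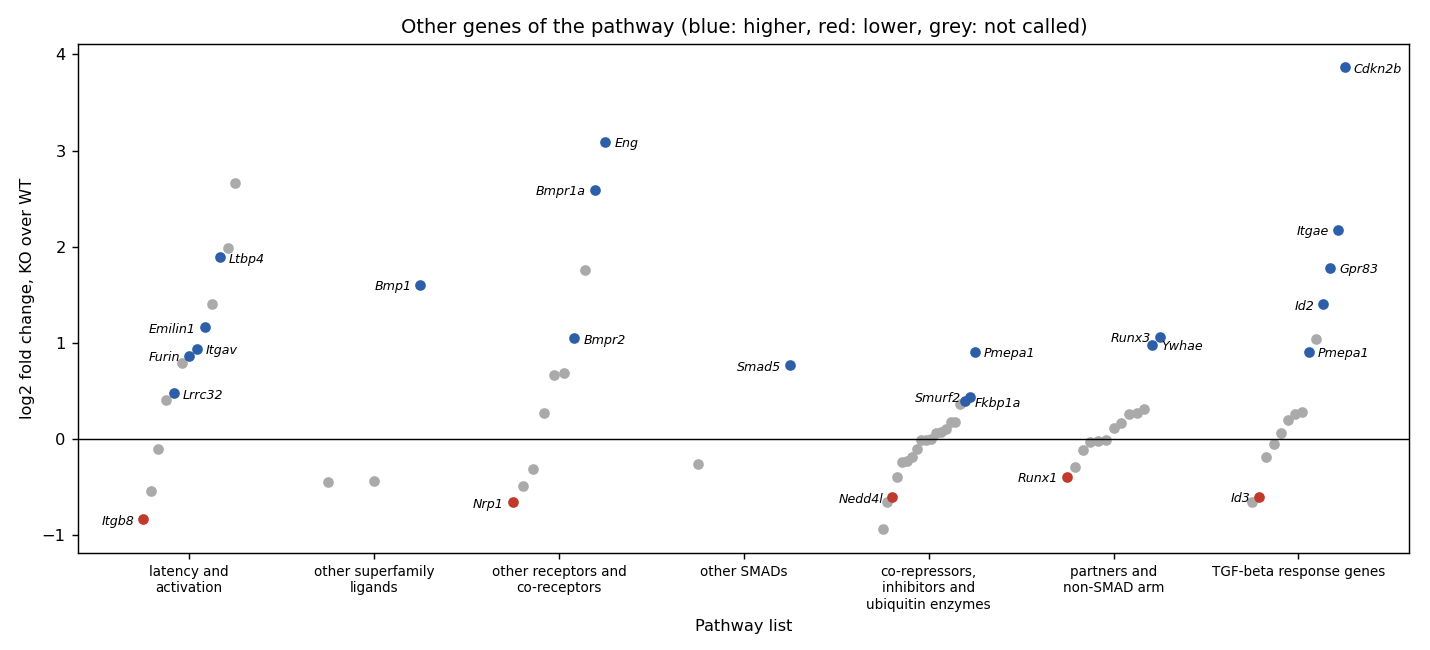
Log2 fold change, KO over WT, of the tested genes in the 7 pathway lists, 1 point per gene, with called genes named (blue higher, red lower) and the others in grey. Itgav (0.94) and Itgb8 (-0.84) lie on opposite sides of 0 in the first list, and Bmpr1a (2.59) and Bmpr2 (1.05) lie above 0 among the receptors.

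Of the 71 tested pathway genes, all with an annotated 3′ UTR, 28 held a 3p 7-mer, of which 10 were called higher and 1 lower. Of the 43 without one, 9 were called higher and 4 lower. Eng is among the 10, and Bmp1 and Cdkn2b are among the 9, although their calls were favored by the filter. The lists were also chosen with earlier results known, so these counts only describe the genes. Over all tested genes with a 3′ UTR, 483 of 2450 with a 3p 7-mer (19.7%) were called higher. Of 6748 with neither a 3p nor a 5p 7-mer, 634 (9.4%) were. Unlike the 43 pathway genes, this second group leaves out genes with a 5p 7-mer, so the contrasts are not like for like. Itgav, Bmpr1a, Bmpr2, Smad5, Smurf2 and Lrrc32 were among the called genes with a 3p match, and Itgb8, which fell, held one too. The share of pathway genes with a 3p match, 39.4%, exceeded the 22.7% over all tested genes with a 3′ UTR. In none of these comparisons was 3′ UTR length matched.

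**Figure D5:**
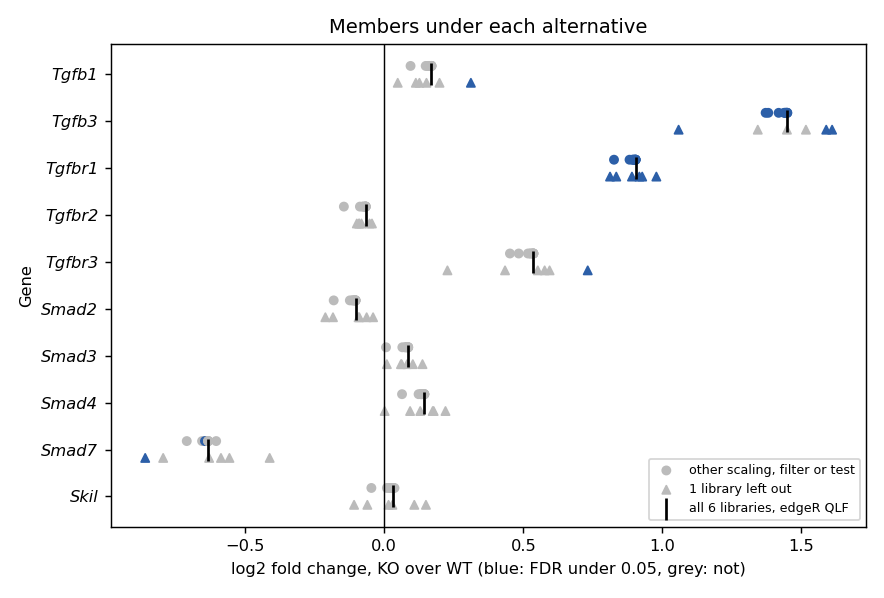
Log2 fold change, KO over WT, of each member with all 6 libraries (black tick), under the 10 other scalings, filters or tests (circles) and with 1 library left out (triangles), in blue where the FDR was under 0.05. The points of Tgfbr1 are blue throughout and lie between 0.81 and 0.98, whereas those of Skil lie on both sides of 0.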

How the data were processed

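RNA-seq was made from sorted splenic CD4+YFP+ Treg cells of 3 WT and 3 KO mice. The authors aligned single-end reads with HISAT to mm10, counted them on genes with featureCounts, ignoring strand, and deposited the raw counts, for which versions and annotation are not given in the sources used here. Overlapping genes and antisense transcripts can therefore share reads. All 6 sample columns were used. The filter of the study was kept (over 1 CPM in 3 or more libraries), and the QLF test, 1 of the 3 edgeR tests whose joint calls the study used, was run with TMM scaling (edgeR 4.0.16, R 4.3.3, FDR under 0.05). SE and 95% intervals were derived from the QLF statistic. CPM values in the text use TMM library sizes. The ratio tests added 0.5 counts and were exact permutations over libraries. Exon lengths, positions and 3′ UTRs came from GENCODE vM21 (GRCm38, the build mm10 names), matched by symbol for all 10 members and for 10786 tested genes with a 3′ UTR. Named pathway genes were those with an FDR under 0.05 in each list (at most 8), and a few others were named after their values were seen. Alternatives covered scaling, filter, DESeq2 1.42.0, likelihood ratio and exact tests, robust estimation, a replicate block and leaving out each library. The QLF, DESeq2, likelihood ratio and exact test fits were tried on simulated counts. The sequence search, the levels per kb and the ratio tests were not. The members and lists were chosen with earlier results of these data known. Ly6g of the neutrophil list and Mir142hg were not analysed here. A further marker list is not reported here.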

Additional observations from a re-analysis of the deposited data

How the results depend on the processing

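Tgfbr1 and Tgfb3 kept their direction in all 16 alternatives, and Tgfbr1 its call. Members called higher stayed at 2 in the 10 alternatives that kept all libraries and ranged from 1 to 3 with a library left out, while members called lower ranged from 0 to 1, with 1 under DESeq2. Skil reversed to -0.046 when scaling by library size alone, to -0.109 without WT replicate 1 and to -0.061 without KO replicate 2, within a range of -0.109 to 0.15 with a library left out, and the cause was not tested. Scaling by library size alone moved the median log2 fold change of all tested genes from 0.016 to -0.061 and gave 1064 higher and 1201 lower genes against 1350 and 847. DESeq2 gave 1665 and 1198. Leaving out a library gave 483 to 1403 higher and 208 to 937 lower genes, and 10 to 19 higher and 2 to 7 lower pathway genes. Without a filter, 3 pathway genes were called lower against 5. Pairing by replicate number was not evident. Deviations of same-numbered WT and KO libraries from their group means correlated at 0.080, -0.0056 and -0.195, and those of differently numbered libraries at -0.183 to 0.207. With 3 libraries per group this check cannot settle whether libraries were paired. With the replicate block 545 genes were called lower, 1061 higher, and 3 pathway genes lower. It changed no call among the members, and Lrrc32, Bmp1, Fkbp1a, Runx1 and Id3 lost theirs. The within-library ratios kept their direction throughout, from 0.900 to 1.03 for Tgfbr1 over Tgfbr2, from -0.921 to -0.502 for Smad7 over Smad3, from -1.41 to -1.02 for Tgfb1 over Tgfb3 and from -0.195 to -0.017 for Skil over Smad4 with a library left out. With 3 mice per group, changes of any size inside a gene's interval are not excluded, and the few reads of Tgfb3 limit its precision.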
